A study of Homo sapiens with 4 samples.

Results

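The genes described here encode the proteins of the mitochondrial ribosome. They were chosen by symbol, as every gene named MRPL or MRPS with a number and at most 1 letter, plus DAP3, which gave 79 of the 60682 genes in the count table. RNA-seq of total RNA measured them in JJN3, an established human multiple myeloma cell line, after transduction with a short hairpin RNA (shRNA) against the kinase gene WNK1 (shWNK1, 2 libraries) or with the NS shRNA (NS, 2 libraries). Both groups were grown in the same medium and carry an shRNA, and the labels give neither the number of hairpins nor the time after transduction. All the values describe a single cell line.

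The mitochondrial ribosome translates the few proteins that mitochondrial DNA encodes, all of which are core subunits of the respiratory chain complexes and of ATP synthase. Its ribosomal RNAs are transcribed in the mitochondrion, whereas its proteins are encoded in the nucleus, made in the cytosol and imported. Some of these proteins descend from bacterial ribosomal proteins and others were added during the evolution of mitochondria. The large subunit joins amino acids and holds the exit tunnel for the new protein, and the small subunit reads the messenger RNA. By these roles the members comprise 51 genes of the large subunit and 27 of the small subunit. The remaining gene, MRPS36, keeps a ribosomal name but encodes a component of the 2-oxoglutarate dehydrogenase complex.

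Total counts per library were between 16973521 and 20164122, so that 3 counts corresponded to 0.149 to 0.177 in counts scaled to library size (CPM). WNK1 itself had 325 and 403 counts in the shWNK1 libraries, against 4911 and 4148 in the NS libraries, a 13.9-fold lower level in shWNK1. The 8 plasma cell markers all reached 1 CPM, and their summed level was 1984 and 1976 CPM in shWNK1 libraries and 2211 and 2190 CPM in NS libraries. Single markers differed in both directions: SDC1 averaged 86.7 CPM in shWNK1 against 217 CPM in NS libraries, and MZB1 averaged 61.0 CPM in shWNK1 against 120 CPM in NS libraries. JCHAIN averaged 490.0 CPM in shWNK1 against 412 CPM in NS libraries, and PRDM1 averaged 316 CPM in shWNK1 against 266 CPM in NS libraries. Their part in the members' differences was not tested. No T or NK cell, myeloid or erythroid marker reached 1 CPM. Of 5 mature B cell markers only PAX5 did, and of 6 stromal or epithelial markers 3 did, among them EPCAM, with a mean of 123 CPM in the shWNK1 libraries and of 114 CPM in the NS libraries. The 2 NS libraries lay apart from each other on the second principal component of all genes, which held 16.7% of the variance, against 71.2% on the first. How the cultures behind the 2 libraries of a group relate is not given, and the p-values given here therefore rest on the spread among 4 libraries, part or all of which may be technical. In such bulk RNA, fewer expressing cells and less RNA per cell cannot be told apart.

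Most mitochondrial ribosomal protein genes had lower RNA levels in shWNK1 cells than in NS cells. Of the 78 members tested, 46 fell and 2 rose at an adjusted p under 0.05 in edgeR's quasi-likelihood test, with Benjamini-Hochberg adjustment over all genes tested. Over all 14864 genes tested, 20.2% fell and 18.5% rose, against 59.0% and 2.56% of the members. The median log2 fold change (shWNK1 over NS) was -0.26 over the members and 0.005 over all genes, which for the typical member is a level 16.5% lower. The differences were small and one-sided. The middle 50% of the members lay between -0.48 and -0.15, 69 values were negative and 9 were positive, and only MRPL50, MRPS26 and MRPL14 fell by over 2-fold. In 61 of 78 members both shWNK1 libraries lay below both NS libraries in CPM, in 7 they lay above them, and in 10 the groups overlapped. Over all genes, 33.7% had both shWNK1 libraries below and 34.7% had both above. Leaving out 1 library gave 32 falls without shWNK1 replicate 1, 32 without shWNK1 replicate 2, 54 without NS replicate 1 and 34 without NS replicate 2. The count of rises was 0, 1, 1 and 5 in the same fits. Over all genes there were 1964 falls and 1663 rises without shWNK1 replicate 1, and 2034 falls and 1632 rises without shWNK1 replicate 2.

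**Figure D1:**
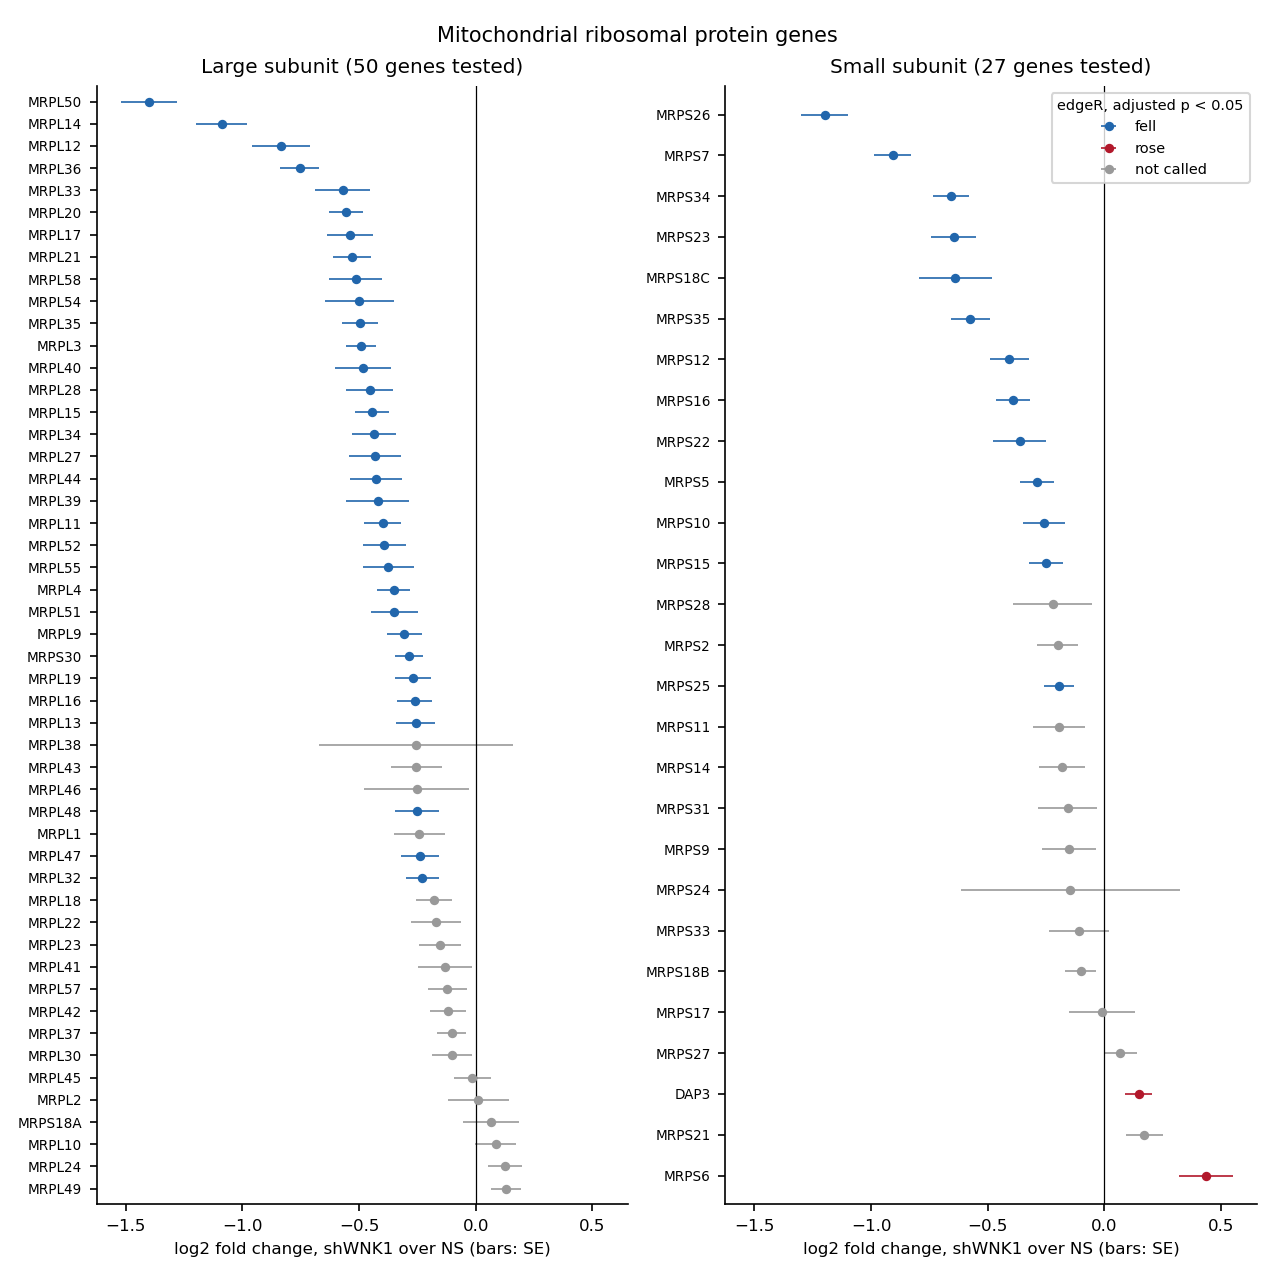
log2 fold change of each tested member in shWNK1 over NS cells, with its standard error, for the 50 large-subunit genes (left) and the 27 small-subunit genes (right), in order of size. MRPS36 is not drawn. Blue points fell, red points rose and grey points were not called, and the values run from -1.40 for MRPL50 to 0.44 for MRPS6.

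MRPL50, a mitochondria-specific protein of the large subunit, had the lowest fold change of all members. Its level was 15.5 and 13.4 CPM in the shWNK1 libraries, against 38.1 and 37.9 CPM in the NS libraries. The NS libraries were nearly equal, and both shWNK1 libraries lay far below them. The log2 fold change was -1.40 (SE 0.121, adjusted p = 4.0e-11 in edgeR), or 2.64-fold lower in shWNK1. MRPS26, a mitochondria-specific protein of the small subunit, was the next lowest. It had 28.95 and 26.3 CPM in shWNK1 libraries and 57.8 and 69.0 CPM in NS libraries, a log2 fold change of -1.20 (SE 0.100, adjusted p = 2.9e-11 in edgeR). The groups did not overlap, and NS replicate 2 was the highest library.

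MRPL14 is a homologue of a bacterial protein that lies at the interface of the ribosomal subunits. Its level was 27.8 and 29.2 CPM in shWNK1 libraries, against 52.1 and 69.4 CPM in NS libraries, 2.13-fold lower in shWNK1 (edgeR adjusted p = 6.5e-09). NS replicate 2 was again the highest, and without it the call of MRPL14 remained. MRPS7, whose bacterial homologue binds the RNA of the small-subunit head early in assembly, had 48.4 and 50.1 CPM in shWNK1 libraries and 94.4 and 90.2 CPM in NS libraries. It was 1.87-fold lower in shWNK1 (log2 fold change -0.91, SE 0.080, edgeR adjusted p = 6.5e-11), with narrow spread in both groups.

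MRPL12 forms the stalk of the large subunit, through which translation factors are recruited. It had 22.1 and 24.4 CPM in shWNK1 libraries, against 34.9 and 48.2 CPM in NS libraries (log2 fold change -0.83, SE 0.125, edgeR adjusted p = 4.9e-06). The shWNK1 libraries were close to each other, whereas the NS libraries differed. Of its exon bases 69.5% are shared with ENSG00000262660, and pairs that fall there are not counted for either gene, so its level is understated. MRPS36 was next with 11.0 and 10.3 CPM in shWNK1 libraries and 17.1 and 19.3 CPM in NS libraries, without overlap (log2 fold change -0.77, edgeR adjusted p = 8.6e-05).

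**Figure D2:**
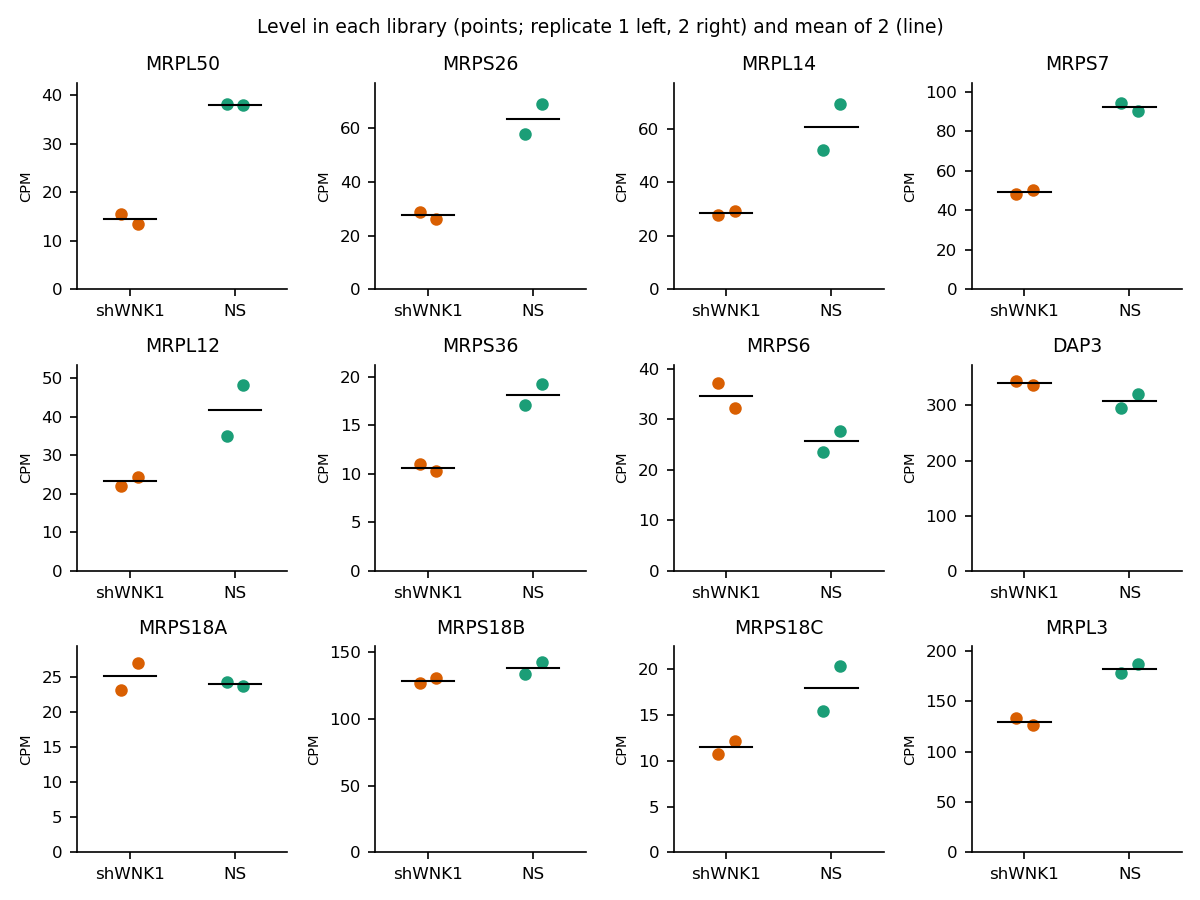
Level in CPM (vertical axis, from 0) of 12 members in each of the 2 shWNK1 libraries (left) and the 2 NS libraries (right); the line is the mean of 2. MRPL50, MRPS26, MRPL14, MRPS7, MRPL12, MRPS36, MRPS18C and MRPL3 are lower in both shWNK1 libraries, MRPS6 and DAP3 are higher in both, and the groups overlap for MRPS18A.

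Sequence shared by the lowest members was looked at in the 3′ untranslated region (3′ UTR) with the 6-base word AGTATC, which was taken up because an earlier analysis of these data had found it. Each gene was searched on its longest annotated 3′ UTR among GENCODE v29 protein-coding transcripts, on the sense strand. The word was in 11 of 78 tested members, or 14.1%, against 23.3% of the 11880 tested genes with a 3′ UTR. It was in 7 of the 46 members that fell, or 15.2%, against 33.3% of all genes that fell. Members' 3′ UTRs are short, with a median of 459 bases in members without the word and 1121 in members with it, against 1030 and 3074 over all tested genes. The 7 fallen members with the word are shown here because 3 of them are among the 4 lowest members. Each line gives 30 bases of the hg38 reference, 5′ to 3′ in the sense of the transcript, with the word in capitals.
MRPS26: ccaggtcatctgAGTATCattaagagtagt
MRPL14: gggtaacagtgtAGTATCctgtgagagaat
MRPS7: agagagtgaagaAGTATCtaagtgacatct
MRPS23, first site: gtcacaaagctcAGTATCatggtttgacag
MRPS23, second site: tttttgcgatggAGTATCactttgtttccc
MRPS18C: tacttctaaaaaAGTATCacttaaggagaa
MRPS35: atatatgtgatcAGTATCtaatttgatata
MRPS16: ttcaataaatggAGTATCctgagttgccct
On the plus strand these windows are chr20:3048147-3048176 for MRPS26, chr17:75264258-75264287 for MRPS7, chr4:83461960-83461989 for MRPS18C and chr12:27755492-27755521 for MRPS35. On the minus strand they are chr6:44113709-44113738 for MRPL14, chr17:57839613-57839642 and chr17:57838265-57838294 for MRPS23, and chr10:73250733-73250762 for MRPS16. MRPL50, the lowest member, lacks the word in its 3′ UTR.

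Members with the word had a median log2 fold change of -0.57 and those without it of -0.26. Of those with the word 7 of 11 fell, and of those without it 39 of 67 fell. Over all tested genes with a 3′ UTR, 33.7% of those with the word fell and 20.5% of those without it. Their medians were -0.11 and 0.02. As the word came from an earlier analysis of these same data, these contrasts are not independent of its choice. MRPL42, MRPL46, MRPS11 and MRPS33 hold the word and were not called, with log2 fold changes from -0.25 to -0.11. The members without the word had the same median as all tested members to 2 decimals. They make up 67 of the 78 tested, so these medians are not independent. The 13 falls of the small subunit include 6 carriers of the word, and the 32 falls of the large subunit include 1, MRPL14. Most of the 11 carriers, MRPS11 and MRPS33 among them, are small-subunit genes. The only carriers in the large subunit are MRPL14, MRPL42 and MRPL46. Whether the word has a part in these differences was not tested.

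**Figure D3:**
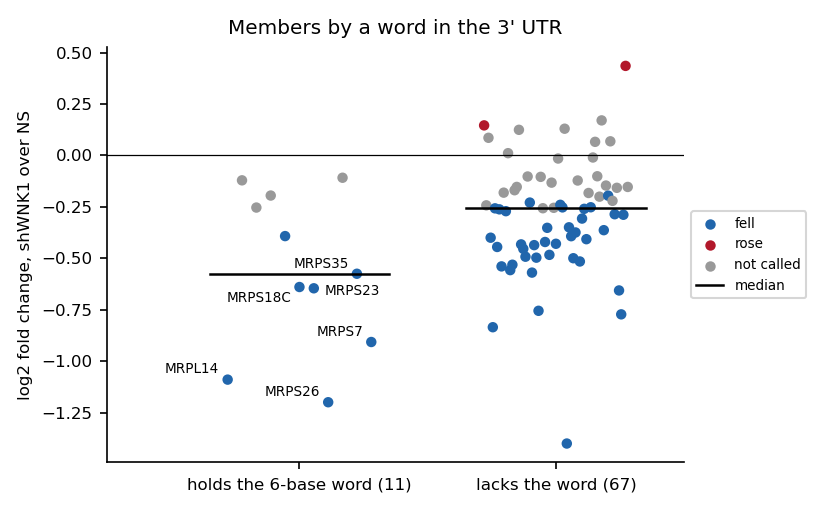
log2 fold change in shWNK1 over NS cells of the 11 members whose 3′ UTR holds the 6-base word (left) and the 67 that lack it (right); lines are medians, -0.57 and -0.26. Blue points fell, red points rose and grey points were not called, and members that fell are found on both sides.

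The large subunit fell in 32 of 50 tested genes, or 64.0%, with a median log2 fold change of -0.30. No gene of it rose with all 4 libraries in edgeR with TMM factors, DESeq2 or limma-voom, and 0 were higher at an unadjusted p under 0.05 in edgeR. Without NS replicate 2, MRPL49 (log2 fold change 0.20, edgeR adjusted p = 0.0093) and MRPL24 were called higher, and MRPL49 was also called higher with upper-quartile factors. With all libraries MRPL49, a mitochondria-specific protein, had 162 and 161 CPM in shWNK1 libraries, against 141 and 154 CPM in NS libraries (log2 fold change 0.13, adjusted p = 0.12). Among its bacterial homologues 22 of 30 fell (median -0.36), and among its mitochondria-specific proteins 10 of 20 fell (median -0.26). The difference between these classes was not tested. MRPL3, which lies near the centre where peptide bonds form, had 133 and 126 CPM in shWNK1 libraries, against 178 and 187 CPM in NS libraries. This is a log2 fold change of -0.49 (SE 0.065, edgeR adjusted p = 2.1e-07), with both groups tight. MRPL36, a very small protein with a zinc-binding bacterial homologue, had 50.7 and 54.2 CPM in shWNK1 libraries and 81.7 and 95.5 CPM in NS libraries, 1.69-fold lower in shWNK1 (edgeR adjusted p = 1.5e-08).

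In the stalk region the members did not move alike. MRPL10, which anchors the copies of MRPL12, had 52.2 and 52.1 CPM in shWNK1 libraries, against 49.0 and 49.2 CPM in NS libraries, and was not called (log2 fold change 0.09, edgeR adjusted p = 0.47). MRPL11, at the base of the stalk, fell with a log2 fold change of -0.40 (edgeR adjusted p = 0.00015). Its levels were 78.1 and 77.99 CPM in shWNK1 libraries and 93.9 and 112 CPM in NS libraries. The value of MRPL11 was -0.26 without NS replicate 2, and it was still called. MRPL10 and MRPL11 were picked for their place beside MRPL12 after their values were seen.

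Several members whose bacterial homologues line or border the exit tunnel had different values, and MRPL4 and MRPL17 among them were picked after their values were seen. MRPL22 and MRPL23, which have such homologues too, were also added with their values known. Neither was called with all 4 libraries. Over the 13 fits the log2 fold change of MRPL22 lay between -0.25 and -0.08, and that of MRPL23 between -0.25 and -0.05. MRPL17 fell with a log2 fold change of -0.54 (edgeR adjusted p = 3.6e-05) and MRPL4 with -0.35 (edgeR adjusted p = 0.00016), and both were called in all 13 fits. MRPL24 had 101 and 110 CPM in shWNK1 libraries, against 92.5 and 101 CPM in NS libraries, and was not called (edgeR adjusted p = 0.19); without NS replicate 2 it was called higher (edgeR adjusted p = 0.028). MRPL47, close to the tunnel's end, fell with a log2 fold change of -0.24 (edgeR adjusted p = 0.019). MRPL32, which an inner-membrane protease matures before it joins the ribosome, fell with a log2 fold change of -0.23 (edgeR adjusted p = 0.011). Neither was called once either shWNK1 library or NS replicate 2 was left out. Without shWNK1 replicate 1, without shWNK1 replicate 2 and without NS replicate 2, the adjusted p of MRPL47 was 0.12, 0.17 and 0.066, and that of MRPL32 was 0.098, 0.15 and 0.084. MRPL45, which helps tether the ribosome to the inner membrane and was picked for that role after its values were seen, had 68.6 and 69.3 CPM in shWNK1 libraries and 68.2 and 71.1 CPM in NS libraries. Its groups overlapped.

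Among the mitochondria-specific proteins of the large subunit, MRPL58 descends from a peptide release factor and is also known to free stalled ribosomes. It had 24.9 and 22.6 CPM in shWNK1 libraries, against 32.4 and 35.5 CPM in NS libraries (log2 fold change -0.52, edgeR adjusted p = 0.00043). MRPL44, which has a fold related to RNase III, had 28.7 and 24.3 CPM in shWNK1 libraries and 36.4 and 34.9 CPM in NS libraries. It fell with a log2 fold change of -0.43 (edgeR adjusted p = 0.0023) but was not called without shWNK1 replicate 2 (adjusted p = 0.12). MRPS30 is named for the small subunit but sits in the large one. It had 177 and 173 CPM in shWNK1 libraries, against 211 and 216 CPM in NS libraries (log2 fold change -0.29, edgeR adjusted p = 0.00031), so a small difference was well separated at this depth.

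In the small subunit 13 of 27 genes fell and 2 rose, with a median log2 fold change of -0.20. Bacterial homologues fell in 7 of 16 cases, and mitochondria-specific proteins fell in 6 of 11, with 1 rise in each class. MRPS12, whose bacterial homologue shapes the decoding centre, had 59.2 and 60.5 CPM in shWNK1 libraries and 74.6 and 84.2 CPM in NS libraries (log2 fold change -0.41, edgeR adjusted p = 0.00016). MRPS34, a mitochondria-specific protein required for a stable small subunit, had 69.3 and 68.0 CPM in shWNK1 libraries, against 101 and 115 CPM in NS libraries (log2 fold change -0.66, edgeR adjusted p = 2.7e-08). Both were below the NS libraries in each shWNK1 library.

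MRPS22, another mitochondria-specific protein, had 23.5 and 26.2 CPM in shWNK1 libraries, against 30.9 and 33.2 CPM in NS libraries. It fell with a log2 fold change of -0.36 (edgeR adjusted p = 0.011) and was not called without shWNK1 replicate 1 (adjusted p = 0.18). MRPS15 (log2 fold change -0.25, edgeR adjusted p = 0.0061) and MRPS25 (-0.20, edgeR adjusted p = 0.016) were among the smallest falls. When shWNK1 replicate 1, then shWNK1 replicate 2, then NS replicate 2 was left out, the adjusted p of MRPS15 was 0.12, 0.068 and 0.058, and that of MRPS25 was 0.12, 0.23 and 0.26. The value of MRPS25 was -0.09 without NS replicate 2.

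The 2 genes that rose both belong to the small subunit. MRPS6, a bacterial homologue, had 37.1 and 32.2 CPM in shWNK1 libraries, against 23.6 and 27.6 CPM in NS libraries. Both shWNK1 libraries were above both NS libraries, by 1.35-fold on average (log2 fold change 0.44, SE 0.115, edgeR adjusted p = 0.0028). Without shWNK1 replicate 1 it was not called (adjusted p = 0.12). DAP3, a GTP-binding protein of the subunit's head that was first described as a mediator of cell death, had 344 and 337 CPM in shWNK1 libraries and 296 and 320 CPM in NS libraries. Its log2 fold change of 0.15 (SE 0.059) was just past the threshold (edgeR adjusted p = 0.049) and was called in only 5 of 12 alternative fits. The adjusted p of DAP3 was 0.32 without shWNK1 replicate 1, 0.25 without shWNK1 replicate 2 and 0.21 without NS replicate 1, and its value was 0.09 without NS replicate 1.

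Human cells carry 3 genes related to a single bacterial small-subunit protein, and their values differed. In the counts by origin, MRPS18C was placed with the bacterial homologues, and MRPS18A and MRPS18B with the mitochondria-specific proteins. MRPS18C, which takes the place of the bacterial protein in the small subunit, had 10.7 and 12.2 CPM in shWNK1 libraries, against 15.4 and 20.4 CPM in NS libraries. It fell with a log2 fold change of -0.64 (SE 0.156, edgeR adjusted p = 0.0013), but not when shWNK1 replicate 1 was left out (adjusted p = 0.058) or NS replicate 2 was (adjusted p = 0.051, log2 fold change -0.42). MRPS18B, also of the small subunit, had 127 and 130 CPM in shWNK1 libraries and 133 and 142 CPM in NS libraries, and was not called (adjusted p = 0.24). MRPS18A, which sits in the large subunit, had 23.2 and 27.1 CPM in shWNK1 libraries and 24.3 and 23.8 CPM in NS libraries, which overlapped. Of the exon bases, 40.2% of MRPS18C are shared with ABRAXAS1 and 47.0% of MRPS18A with RSPH9.

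Each member was accounted for, including those that the counting method measures poorly. MRPL53 was not tested because it had 0 counts in all 4 libraries, where 99.4% of its exon bases are shared with other genes, 79.4% of them with ENSG00000286883. Its level is therefore not known from these counts. MRPL38 had 25 and 41 counts in shWNK1 libraries, against 41 and 29 in NS libraries, with 45.1% of its exon bases shared. MRPS24 had 21 and 34 counts in shWNK1 libraries and 24 and 30 in NS libraries, with 23.2% shared with the readthrough gene URGCP-MRPS24. No difference was detectable in either at these low counts. Across all 79 members, 36 share no exon base with another gene, 43 share some and 11 share over 25%.

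Levels of different genes were compared as CPM divided by exon length in kilobases (RPKM). Over the 78 tested members the median was 17.4 RPKM in shWNK1 and 22.1 RPKM in NS cells. Group means ran from 0.513 to 88.4 RPKM in shWNK1 and from 0.610 to 99.0 RPKM in NS cells, with MRPL38 and MRPS24 at the low end. In NS cells MRPS34 was the highest at 99.0 ± 8.63 RPKM, followed by MRPL37 at 94.99 ± 2.26 RPKM (SD, n = 2), a gap smaller than the spread of MRPS34. Of the exon bases, 31.2% of MRPS34 are shared with EME2 and 6.79% of MRPL37 with other genes. Pairs that fall in shared bases are not counted, whereas the full length divides the counts. Ranks by RPKM are therefore too low for members with much sharing. In shWNK1 cells MRPL37 was the highest at 88.4 ± 4.22 RPKM and MRPS34 was at rank 5 with 62.8 ± 0.838 RPKM (SD, n = 2). MRPL37, a mitochondria-specific large-subunit protein, was not called (edgeR adjusted p = 0.18). The order of the members was otherwise alike in both groups, with a Spearman's rho of 0.97 across the 78 genes, which share libraries and are not independent. Across the same genes the log2 fold change had a rho of 0.20 with exon length, 0.02 with the level in NS cells and 0.08 with 3′ UTR length.

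**Figure D4:**
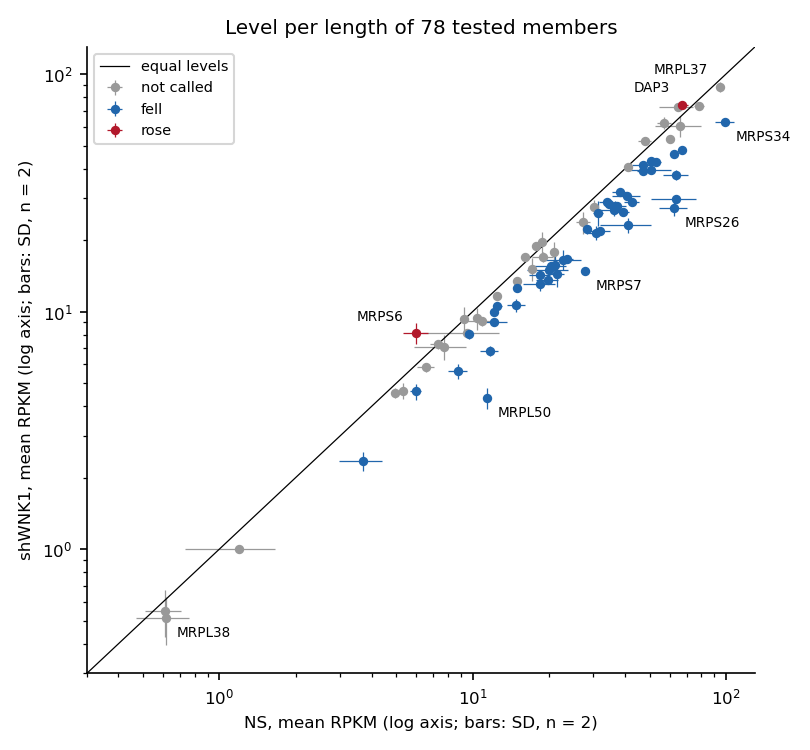
Mean level per length (RPKM, log axes) of the 78 tested members in shWNK1 cells (vertical) and NS cells (horizontal), with SD of 2 libraries and the line of equal levels. Most points lie just below the line at every level, MRPL50 and MRPS26 lie farthest below it, and MRPS6 and DAP3 lie above.

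Summed over the members, the share of all counts was 0.486% (95% Wilson interval 0.483 to 0.490) and 0.480% (0.477 to 0.483) in shWNK1 libraries. In NS libraries it was 0.529% (0.526 to 0.532) and 0.574% (0.570 to 0.577). These intervals cover counting error only, and the exact permutation test of 2 against 2 libraries cannot go below p = 0.333. The 2 shWNK1 libraries were alike, with a median log2 difference over the members of -0.02 between replicate 2 and replicate 1. The NS libraries were not: the same median was 0.13 for NS replicate 2 over replicate 1, with 62 of 78 members higher in replicate 2. Set against NS replicate 1, the median was -0.22 for shWNK1 replicate 1 and -0.23 for shWNK1 replicate 2, with 65 and 63 members lower. Set against NS replicate 2 it was -0.35 and -0.33, with 70 and 69 members lower. Over all tested genes the medians of these library pairs lay between -0.003 and 0.009. In each pair 49.2% to 50.5% of all tested genes were lower in the first library named. The members were thus lower in either shWNK1 library than in either NS library, by an amount that differed with the NS library.

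The other genes of the mitochondrial ribosome are 4 subunits with other names, and 3 of them fell (median log2 fold change -0.31). AURKAIP1, a small-subunit protein, had 159 and 163 CPM in shWNK1 libraries and 191 and 215 CPM in NS libraries (log2 fold change -0.33, edgeR adjusted p = 0.00012). GADD45GIP1, a large-subunit protein, had a log2 fold change of -0.29 (edgeR adjusted p = 0.0026; 0.11 without shWNK1 replicate 1). CHCHD1, of the small subunit, had -0.43 (edgeR adjusted p = 0.0042; 0.13 without shWNK1 replicate 2). PTCD3, a small-subunit protein with RNA-binding repeats, was not called and had 118 and 117 CPM in shWNK1 libraries, against 119 and 110 CPM in NS libraries.

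Of 15 mitochondrial translation factors, which serve translation without being part of the ribosome, 4 fell (26.7%) and 3 rose (20.0%), with a median log2 fold change of -0.16. These shares are near those of all genes, 20.2% and 18.5%. Both shWNK1 libraries lay below both NS libraries in 53.3% of these factors and above in 20.0%, against 33.7% and 34.7% of all genes. OXA1L, which inserts new proteins into the inner membrane, had 114 and 107 CPM in shWNK1 libraries, against 150 and 164 CPM in NS libraries (log2 fold change -0.51, edgeR adjusted p = 3.4e-07). GFM1, an elongation factor, had 117 and 120 CPM in shWNK1 libraries and 159 and 155 CPM in NS libraries (log2 fold change -0.40, edgeR adjusted p = 6.5e-06). MTIF3, an initiation factor, had 13.5 and 18.6 CPM in shWNK1 libraries and 8.74 and 11.997 CPM in NS libraries. It rose with a log2 fold change of 0.64 (edgeR adjusted p = 0.0037), 0.38 without shWNK1 replicate 2 (adjusted p = 0.25) and 0.43 without NS replicate 1. MTRFR, which rescues stalled ribosomes, rose with a log2 fold change of 0.31 (edgeR adjusted p = 0.018), with an adjusted p of 0.18 when shWNK1 replicate 1 was left out and 0.073 when shWNK1 replicate 2 was. The count of rises was 1 without shWNK1 replicate 1 and 0 without shWNK1 replicate 2.

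Of 26 assembly and rRNA maturation factors 5 fell, or 19.2%, near the 20.2% of all genes (median -0.14). Only 1 rose, or 3.85%, against 18.5% of all genes. Both shWNK1 libraries lay below both NS libraries in 61.5% of them and above in 15.4%, against 33.7% and 34.7% of all genes. C1QBP, a matrix protein linked to ribosome biogenesis, had 272 and 273 CPM in shWNK1 libraries, against 358 and 390 CPM in NS libraries (log2 fold change -0.46, edgeR adjusted p = 1.9e-07). RPUSD4, a pseudouridine synthase, fell with a log2 fold change of -0.35 (edgeR adjusted p = 0.00014). ERAL1, a chaperone of the small-subunit rRNA, rose with a log2 fold change of 0.18 (edgeR adjusted p = 0.019), but its adjusted p was 0.16 without shWNK1 replicate 1 and 0.19 without shWNK1 replicate 2. The falls numbered 3 without shWNK1 replicate 2, and the rises numbered 0 without either shWNK1 library and 2 without NS replicate 2.

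The 2 ribosomal RNAs of the mitochondrion, around which the member proteins assemble, had counts in the opposite direction. MT-RNR1, of the small subunit, was 1.74-fold higher in shWNK1 (log2 fold change 0.80, edgeR adjusted p = 3.4e-12), and MT-RNR2, of the large subunit, was 2.23-fold higher (1.16, edgeR adjusted p = 4.2e-17). Together they held 1.01% and 1.10% of counts in shWNK1 libraries, against 0.471% and 0.458% in NS libraries. All mitochondrially encoded genes held 5.82% and 6.02% of counts in shWNK1 libraries and 4.93% and 4.58% in NS libraries. How ribosomal RNA was removed from these libraries is not given in the labels. Without immunoglobulin and mitochondrially encoded genes in the fit, the members' counts were again 46 falls and 2 rises.

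**Figure D5:**
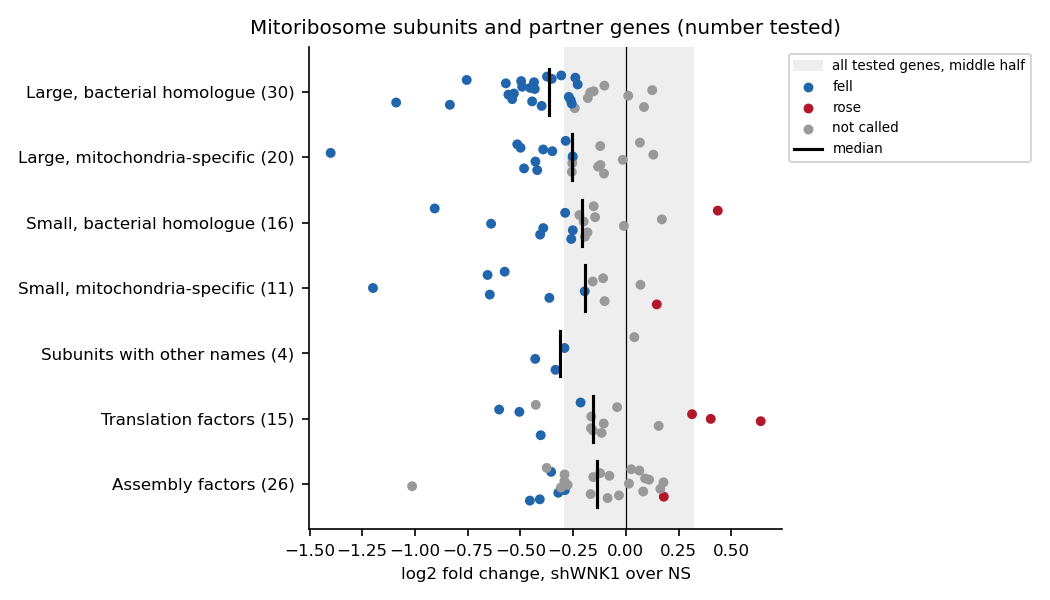
log2 fold change in shWNK1 over NS cells of the members by subunit and origin (upper 4 rows) and of the other subunits, translation factors and assembly factors (lower 3 rows), with the number tested and the median as a black line. MRPS36 is not drawn; blue points fell, red points rose, grey points were not called, and the shaded band spans the middle 50% of all tested genes.

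The promoters of the members were searched for words known from promoters of mitochondrial and housekeeping genes, on both strands of 250 bases before to 50 after the start in RefSeq (GRCh38.p14), where 70 of 79 members matched. The ETS word CCGGAAG, bound by factors such as GABPA, was in 28 of 69 tested members, or 40.6%, against 19.8% of all tested genes with a promoter and 10.3% of all 35116 promoters. It was in 21 of the 41 fallen members, 7 of the 26 not called and 0 of the 2 that rose. Over all tested genes it was in 21.1% of those that fell, 20.3% of those not called and 17.0% of those that rose. Members with the word had a median log2 fold change of -0.39 and those without it of -0.23. Over all tested genes the medians were -0.02 with the word and 0.01 without it. The YY1 word AAGATGGCG was in 18.8% of members and 4.03% of tested genes, the NRF1 word (GCGC, any 2 bases, GCGC) in 13.0% and 16.5%, the E-box CACGTG in 8.70% and 10.1%, and the SP1 word GGGCGG in 60.9% and 69.7%. The falls were 6 of 13 members with the YY1 word and 35 of 56 without it, and 3 of 9 and 38 of 60 for NRF1. For the E-box they were 2 of 6 and 39 of 63, and for SP1 23 of 42 and 18 of 27. Over all tested genes with a promoter, 24.0% with the YY1 word and 22.2% without it fell, and 21.9% and 22.4% for NRF1. These shares were 26.2% and 21.8% for the E-box, and 23.2% and 20.2% for SP1. Of the 6 lowest members MRPS36 had no matched promoter and was not searched. Among the others only MRPS26 holds the ETS word, 37 bases before the start, and its promoter is shown for that reason. It is given 5′ to 3′ on the plus strand of chr20:3045802-3046101 with the word in capitals as CTTCCGG, its reverse complement.
MRPS26: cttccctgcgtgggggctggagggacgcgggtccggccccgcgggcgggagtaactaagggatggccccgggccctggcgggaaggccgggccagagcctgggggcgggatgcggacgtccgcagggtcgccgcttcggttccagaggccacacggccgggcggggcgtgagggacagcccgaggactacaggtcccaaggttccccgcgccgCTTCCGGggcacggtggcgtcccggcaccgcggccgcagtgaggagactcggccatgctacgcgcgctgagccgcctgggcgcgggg
A match of these letters is a description of the sequence, and whether a factor binds there was not measured.

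Many members start back to back with a neighbour on the other strand. A tested gene began within 1000 bases in this arrangement at 20 of 78 tested members, or 25.6%, against 14.9% of all tested genes. Of these members 13 of 20 fell (median log2 fold change -0.27), and of the others 33 of 58 fell (median -0.26). Over all 2216 tested genes in this arrangement, 19.8% fell and 17.6% rose (median 0.01). Across the 20 pairs Spearman's rho between the log2 fold changes was -0.21, a weak relation, where 2 of the pairs are MRPL46 and MRPS11 counted from either side. NDUFS6, a subunit of respiratory complex I that starts 41 bases from MRPL36, had a log2 fold change of -0.66 (edgeR adjusted p = 0.0023), beside -0.75 for MRPL36. Leaving out NS replicate 2 gave NDUFS6 a value of -0.44 and leaving out NS replicate 1 gave -0.85, and it was called in both fits. SLC7A7, an amino acid transporter gene 59 bases from MRPL52, rose with a log2 fold change of 0.85 (edgeR adjusted p = 0.00039), whereas MRPL52 fell by 0.39, or by 0.23 without NS replicate 2. TCP1, a subunit of the cytosolic chaperonin 109 bases from MRPL18, fell by 0.48 (edgeR adjusted p = 2.3e-08), and MRPL18 was not called at -0.18 (adjusted p = 0.061; 0.029 without NS replicate 1). ZNF189, 255 bases from MRPL50, was not called at 0.42 (adjusted p = 0.055). Without NS replicate 2 ZNF189 was called higher at 0.58 (adjusted p = 0.016), and without NS replicate 1 it was 0.27. These 4 neighbours were picked after their values were seen.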

How the data were processed

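RNA-seq counts of 4 libraries were used, 2 shWNK1 and 2 NS, grouped by the labels. The deposited values are raw counts per gene that the authors made with featureCounts 2.0.0 on GENCODE v34, per the file headers, without use of strand, at a mapping quality of at least 20, with both ends mapped, and with multi-mapping and multi-overlapping pairs not requested. Reads were trimmed with Trimmomatic and aligned to hg38 with STAR, per the submitters' processing notes. Overlapping genes therefore lose shared bases, and antisense reads cannot be told apart. The gene lengths in the deposited table were used for RPKM. Symbols came from the reference tables (60369 of 60682 genes); 45 second copies of pseudoautosomal genes were left out. Genes were tested with edgeR 4.0.16 (limma 3.58.1, R 4.3.3): TMM factors, filterByExpr, robust glmQLFit and a two-sided glmQLFTest, Benjamini-Hochberg adjusted, called under 0.05. The script was tested on simulated data. DESeq2 1.42.0, limma-voom, other factors and filters, a replicate block and each library left out were alternatives. Exon overlap came from the deposited table's own exon coordinates, 3′ UTRs from GENCODE v29 and promoters from RefSeq. The SE of an edgeR log2 fold change was derived from the test, as its absolute value divided by the square root of the F statistic. Correlations across genes are descriptions.

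The members, gene lists and words were chosen with earlier results of these data known. Named genes are a panel of 14 members, the 6 called members with the lowest and the 6 with the highest log2 fold change, the 3 highest and 3 lowest levels per length in NS, untested members, and in the other gene lists the 2 called falls and 2 called rises with the smallest p. Further named genes were picked after their values were seen.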

Additional observations from a re-analysis of the deposited data

How the results depend on the processing

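The members' median log2 fold change stayed negative in every fit, between -0.33 and -0.22 with a library left out and at -0.22 with upper-quartile factors, which put the median of all genes at 0.044. Of the 46 falls, DESeq2 kept 42 and upper-quartile factors kept 42, and 27 were called in all 13 fits. In all of these fits 61 members were negative. The members' count of rises was 1 with DESeq2, 1 with RLE factors, 1 without a low-count filter and 4 with upper-quartile factors, and 0 to 5 with a library left out. DESeq2 also gave 1 rise among the translation factors. With a library left out, all genes had 1964 to 3024 falls and 1632 to 2778 rises, the translation factors 0 to 2 rises, and the assembly factors 3 to 7 falls and 0 to 2 rises. Without carriers of AGTATC, an alternative chosen after seeing the data, the small subunit had 7 falls, a count set by the removal of 6 carriers that had fallen. Signs turned only for members not called with all libraries. MRPL41, MRPL46, MRPS28 and MRPS33 were called lower without NS replicate 1 (-0.33, -0.60, -0.53 and -0.33) and were positive and not called without NS replicate 2 (0.10, 0.21, 0.17 and 0.16). With a library left out, MRPL38 lay between -0.53 and 0.0070 (highest without NS replicate 1), MRPS18A between -0.059 (without shWNK1 replicate 2) and 0.18, and MRPS24 between -0.40 and 0.061 (without shWNK1 replicate 1), with 0.034 without NS replicate 2. The cause was not tested. The labels number the libraries 1 and 2, but deviations of equal numbers had a correlation of 0.001, so the number is not taken as a pairing. With the replicate block, 46 members fell and 1 rose, and over all genes 2804 fell and 2539 rose. A library left out leaves a group with 1 library, assumed to vary like the other group. Low counts limit MRPL38 and MRPS24, of whose exon bases 45.1% and 23.2% are shared, and exon overlap limits MRPL53.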
